A study of Homo sapiens with 6 samples.

Results

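The genes of mitochondrial protein import and of the matrix chaperones and proteases were examined in HepG2 cells, a human hepatocellular carcinoma line, with and without recombinant GDF11 (growth differentiation factor 11, a secreted ligand of the TGF-beta family). They were taken as a list of 43 gene symbols covering the TOM, SAM and TIM complexes, the disulfide relay, the presequence motor, the processing peptidases and the matrix chaperones and proteases. Each of the 43 matched 1 row of the 60240 Ensembl genes of the deposited table, and all 43 passed the filter on low values, among 18723 genes tested. Untreated control cultures were compared with cultures that received 100 ng/ml GDF11 for 24 h, in 3 libraries each, which the labels call biological replicates. All cultures were grown in high-glucose medium with fetal bovine serum, and no genetic change is named for either group. Bulk RNA was measured, so fewer cells expressing a gene and less of its RNA per cell cannot be told apart.

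Nearly all mitochondrial proteins are encoded in the nucleus, made in the cytosol and imported. Precursors are recognised by receptors of the TOM complex and cross the outer membrane through its channel. They are then passed to the SAM complex (outer membrane barrels), to the MIA relay and the small TIM chaperones (intermembrane space), to TIM22 (inner membrane carriers) or to TIM23 and its matrix motor (presequence proteins). In the matrix the presequence is cut off, the protein is folded by Hsp60, Hsp10 and Hsp70 chaperones, and damaged protein is degraded by the LON and CLP proteases. Hepatocytes are rich in mitochondria.

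GDF11-treated cultures had lower normalised RNA values for many of these genes. Of the 43 members, 18 fell, 0 rose and 25 were not called by limma at a Benjamini-Hochberg adjusted p under 0.05 over all 18723 genes. Among all tested genes 10.8% were called lower and 11.7% higher. The median log2 difference (GDF11 minus control) was -0.56 over the members and 0.0056 over all tested genes. By unadjusted p under 0.05, 28 members differed, against 6957 of all 18723 tested genes. The difference was below 0 for 41 members, against 49.4% of all tested genes, the exceptions being DNAJC15 and CLPX. For 24 members all 3 GDF11 values lay below all 3 control values (19.6% of tested genes), and for CLPX alone they lay above (20.9% of tested genes). Values are on the variance-stabilised log2 scale of the table, whose floor, held by genes with no reads, is 5.521. The members stood between 9.08 and 16.76 on it, where the scale keeps 0.835 (at a value of 9) to 0.978 (at 12) or more of a true log2 change. The called decreases ran from -0.51 to -1.20, or 30.8% to 57.1% fewer normalised reads on group means.

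**Figure D1:**
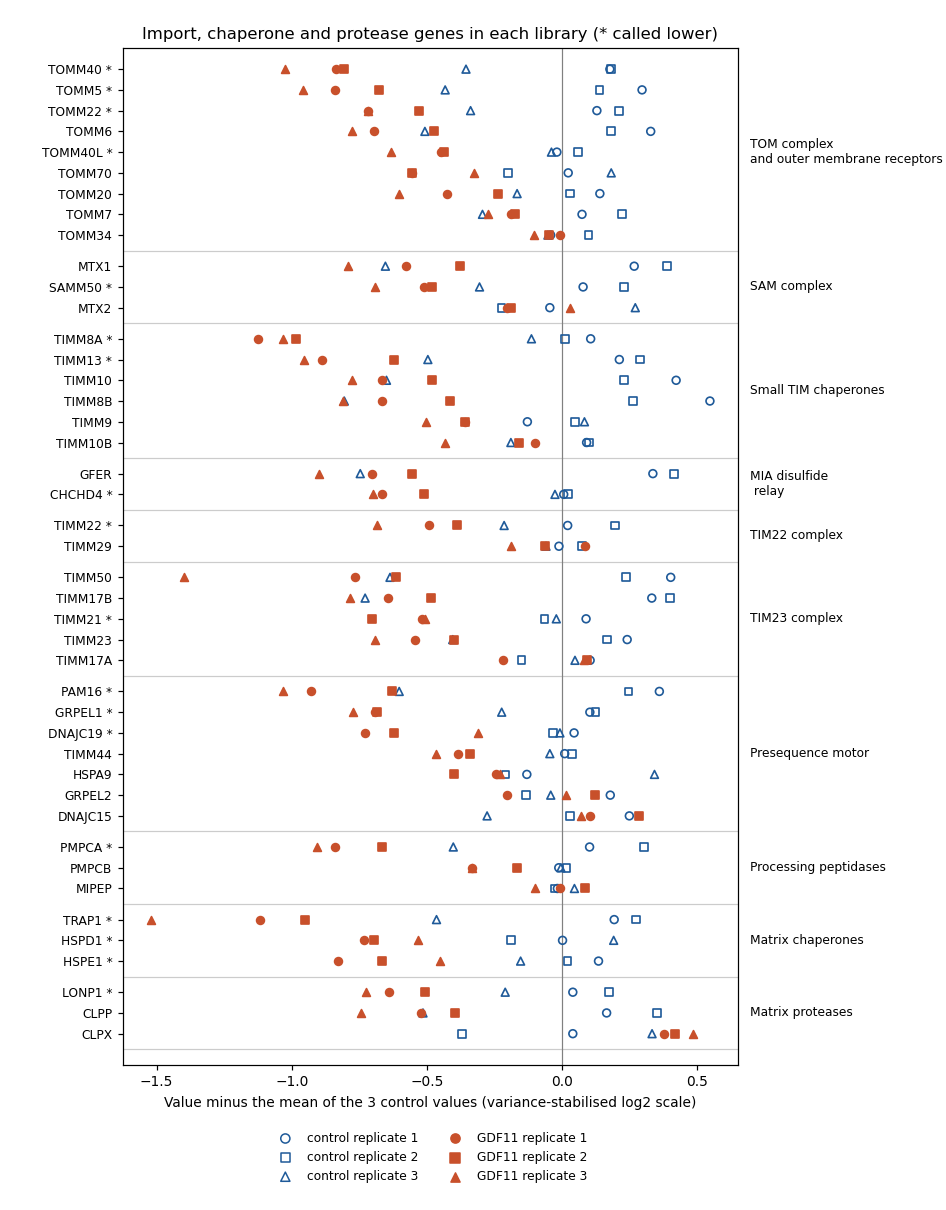
Value of each of the 43 genes in each library minus the mean of its 3 control values (x axis, variance-stabilised log2 scale), by role (right) and ordered by difference within a role. Open blue symbols are control and filled red symbols GDF11 libraries, and a star marks the 18 genes called lower. Control replicate 3 (open triangle) lay below both other controls for 31 genes.

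Among the controls, replicate 3 differed from its fellows over these genes. It lay below both for 31 members, above both for 7 and between them for 5. Over the 29 members that differed by at least 0.5 between the GDF11 mean and the mean of control replicates 1 and 2, its median position was 0.62, on a scale where 0 is that control mean and 1 the GDF11 mean. Without control replicate 3, 31 members were called lower (21.3% of tested genes) and 1, CLPX, higher (3647 of 18723 tested genes). All 18 decreases were among the 31. The other fits that left out 1 library called fewer members lower, and fewer of all tested genes. Without control replicate 1, 5 members were called lower, and without control replicate 2, 8 (1094 and 1189 of 18723 tested genes). Without GDF11 replicate 1, 2 and 3 there were 4, 8 and 5 (1001, 1144 and 955 tested genes). With all 6 libraries, 2017 tested genes were called lower. RNA integrity numbers were 9.6 to 9.9 in control and 9.4 to 9.6 in GDF11 libraries, with control replicate 3 at 9.6. With that number as a covariate, 3 members were called lower (3.85% of tested genes): TIMM8A, HSPD1 and, new to the calls, TOMM70. The median difference was then -0.24, and 32 members had a difference below 0. The RNA integrity numbers of the groups met only at 9.6, and the part of RNA integrity in the decreases was not tested. Depth, estimated from the deposited values, was 47900000 to 53400000 reads a library. The members together held 0.547% to 0.656% of normalised reads in control and 0.438% to 0.468% in GDF11 libraries. In every library HSPD1 held more of these reads than any other member.

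The cell identity and other cell types were checked on marker lists. The 10 hepatocyte and hepatoma markers held 3.30% to 3.95% of reads in control and 2.97% to 3.23% in GDF11 libraries, and 5 of them were called lower, among them ALB and AFP. Of 6 immune markers PTPRC and CD3E were at the lowest value in all 6 libraries, and the summed share, most of it LYZ, was 0.116% to 0.153% in control and 0.069% to 0.0759% with GDF11. The 4 of 5 endothelial markers that matched held at most 0.000164% of reads, with TEK at the lowest value throughout. The 6 stellate cell and fibroblast markers held 0.00148% to 0.00337% of reads in control and 0.00443% to 0.00557% in GDF11 libraries, mainly through PDGFRB. The part of these shifts in the results on import genes was not tested.

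In the TOM complex and its outer membrane receptors, 4 of 9 genes fell and 0 rose, with a median difference of -0.51. TOMM40, which encodes the channel of the outer membrane (ENSG00000130204.13, chromosome 19, 44891254 to 44903689 of GRCh38.p14), had control values of 13.20, 13.21 and 12.67 and GDF11 values of 12.19, 12.22 and 12.001. The groups did not overlap, and the GDF11 values lay close together. The difference was -0.89 ± 0.18 (SE, limma adjusted p = 0.00933), or 47.2% fewer normalised reads. Its paralogue TOMM40L stood at 11.09, 11.17 and 11.07 in control and at 10.66, 10.67 and 10.48 with GDF11. It fell by 0.51 ± 0.14 on the log2 scale (adjusted p = 0.0304).

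Of the small subunits that stabilise the channel, TOMM5 had control values of 12.91, 12.75 and 12.18 and GDF11 values of 11.77, 11.94 and 11.66, and fell by 0.83 ± 0.21 (adjusted p = 0.0206). TOMM6 (-0.65 ± 0.23, adjusted p = 0.0708) and TOMM7 (-0.21 ± 0.17, adjusted p = 0.386) were not called, and in both control replicate 3 lay within or below the range of the GDF11 values. TOMM22, the central receptor, had control values of 12.89, 12.97 and 12.42 and GDF11 values of 12.04, 12.23 and 12.04. It fell by 0.66 ± 0.18 (adjusted p = 0.0307). The presequence receptor TOMM20 was not called (-0.42 ± 0.16, adjusted p = 0.0970), although its groups did not overlap. TOMM70, the receptor for carrier precursors, was not called either (-0.48 ± 0.16, adjusted p = 0.0597). Its control replicate 3 was the highest control at 12.40, the GDF11 values were 11.66, 11.66 and 11.89, and with the RNA integrity covariate it was called (-0.80, adjusted p = 0.0216). TOMM34, a cytosolic co-chaperone that binds precursors, stood at -0.06 ± 0.14 (adjusted p = 0.80).

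The calls in this group were not equally stable. That of TOMM40 ended only with the RNA integrity covariate (-0.46, adjusted p = 0.174) among 19 alternatives. With each of 6 libraries left out in turn, TOMM22 and TOMM40L lost their calls in every fit but that without control replicate 3, at differences from -0.72 to -0.55 and from -0.54 to -0.44, and TOMM40L also lost it with no filter on low values (adjusted p = 0.0571). TOMM5 lost its call without control replicate 1 or 2 or GDF11 replicate 1 or 3 (-0.82 to -0.68). With the covariate the 3 stood at -0.30 (TOMM22), -0.38 (TOMM40L) and -0.38 (TOMM5), and none was called. Without control replicate 3, TOMM6 (-0.90), TOMM7 (-0.36), TOMM20 (-0.51) and TOMM70 (-0.39) were called lower, at adjusted p of 0.00102 to 0.0446. With the covariate TOMM70 was called, as given above, while TOMM6 (-0.14) and TOMM20 (-0.21) were not, and TOMM7 turned to 0.15 (adjusted p = 0.686).

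The promoter of TOMM40 is shown because the gene had the lowest adjusted p of the complex and its window holds a match to the NRF1 motif, the site of nuclear respiratory factor 1, a known activator of nuclear genes for mitochondria. Sequences here are RefSeq promoters of GRCh38.p14, from 250 bases before to 50 after the gene start, 5′ to 3′ on the gene's strand. Capitals mark matches to the motifs searched on both strands, here that of NRF1 (GCGCA and GCGC with 1 base between them). The window is chr19:44891004-44891303 on the plus strand, and the match begins 222 bases before the start.
TOMM40: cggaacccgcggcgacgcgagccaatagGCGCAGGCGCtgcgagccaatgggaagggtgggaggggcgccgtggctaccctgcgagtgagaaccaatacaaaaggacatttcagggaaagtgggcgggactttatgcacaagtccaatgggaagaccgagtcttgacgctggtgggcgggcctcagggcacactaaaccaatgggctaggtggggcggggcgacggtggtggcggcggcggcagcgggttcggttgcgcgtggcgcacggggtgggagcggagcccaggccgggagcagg

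In the SAM complex, which inserts barrel proteins into the outer membrane, 1 of 3 genes fell. SAMM50, its core, had control values of 12.17, 12.33 and 11.79 and GDF11 values of 11.59, 11.62 and 11.40. The groups did not overlap, and SAMM50 fell by 0.56 ± 0.17 (limma adjusted p = 0.0481). This call lay at the threshold. It ended in every fit that left out 1 library but that without control replicate 3 (-0.60 to -0.45), without a filter (adjusted p = 0.0765), with quantile normalization (-0.45), and with a robust prior (adjusted p = 0.0514). The RNA integrity covariate brought it to -0.15. MTX1 and MTX2 encode metaxins, its outer partners. MTX1 was not called (-0.58 ± 0.27, adjusted p = 0.148), with control replicate 3 at 11.08 against 11.999 and 12.12 in the other controls, and was called without that library (-0.91, adjusted p = 0.0016). The covariate turned MTX1 to 0.18 (adjusted p = 0.737). MTX2 was not called (-0.12 ± 0.17, adjusted p = 0.642).

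Both genes of the MIA disulfide relay, which oxidises small proteins in the intermembrane space, had lower mean values, and 1 of 2 fell. CHCHD4, the import receptor and oxidase (ENSG00000163528.13, chromosome 3, 14112077 to 14124870), stood at 9.87, 9.88 and 9.83 in control and at 9.20, 9.35 and 9.16 with GDF11. The 3 controls were nearly equal and all GDF11 values were lower. It fell by 0.63 ± 0.14 (limma adjusted p = 0.0128), a call that ended without GDF11 replicate 1 (-0.61) or 3 (-0.59), and with the covariate for RNA integrity (-0.58). GFER, which re-oxidises CHCHD4, had control values of 12.65, 12.72 and 11.56 and GDF11 values of 11.61, 11.76 and 11.41. The third control lay among the GDF11 values, and GFER was not called (-0.72 ± 0.29, adjusted p = 0.107). It was called without control replicate 3 (-1.09, adjusted p = 0.000453), but its direction turned with the covariate (0.12, adjusted p = 0.846).

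The window of CHCHD4, chr3:14124821-14125120 on the minus strand, is shown because it was the one of those printed with a pair of NRF1 matches (capitals, at 152 and 87 bases before the start).
CHCHD4: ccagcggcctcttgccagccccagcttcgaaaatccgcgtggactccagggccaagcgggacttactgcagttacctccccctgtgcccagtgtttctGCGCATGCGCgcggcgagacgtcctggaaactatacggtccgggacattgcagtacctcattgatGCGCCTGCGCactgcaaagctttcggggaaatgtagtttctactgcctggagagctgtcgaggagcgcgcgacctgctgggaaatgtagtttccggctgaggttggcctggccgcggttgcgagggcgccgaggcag

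Small TIM chaperones carry hydrophobic precursors across the intermembrane space, TIMM8A with TIMM13 and TIMM9 with TIMM10. Of the 6 genes 2 fell and 0 rose, with a median difference of -0.64. TIMM8A, the gene mutated in deafness-dystonia syndrome (ENSG00000126953.8, chromosome X, 101345661 to 101348742), had control values of 10.31, 10.21 and 10.09 and GDF11 values of 9.08, 9.22 and 9.17. Control replicate 3 was close to the other controls, and the groups were far apart. The difference was -1.05 ± 0.14 (limma adjusted p = 0.00114), or 55.7% fewer normalised reads. TIMM8A was the one member called lower under each of the 19 alternatives, where its difference ran from -1.17 to -0.95, and with the RNA integrity covariate it stood at -0.99 (adjusted p = 0.0162).

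TIMM8A is shown as the member with the lowest p, in its window chrX:101348693-101348992 on the minus strand. It holds no match to the NRF1 motif, and the capitals are the E-box CACGTG at base 29 after the start.
TIMM8A: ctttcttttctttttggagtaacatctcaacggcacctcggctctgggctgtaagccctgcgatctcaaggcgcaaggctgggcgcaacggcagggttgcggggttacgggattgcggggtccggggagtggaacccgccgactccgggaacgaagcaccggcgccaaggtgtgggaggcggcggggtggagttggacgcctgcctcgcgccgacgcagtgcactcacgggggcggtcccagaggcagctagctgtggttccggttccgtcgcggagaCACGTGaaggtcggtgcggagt

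TIMM13, the partner of TIMM8A, stood at 12.57, 12.64 and 11.86 in control and at 11.47, 11.73 and 11.40 with GDF11, and fell by 0.82 ± 0.22 (limma adjusted p = 0.0294). Its call ended without control replicate 1 or 2 or GDF11 replicate 1 or 3 (-0.79 to -0.68) and with the RNA integrity covariate (-0.28). TIMM8B, the paralogue of TIMM8A, was not called (-0.63 ± 0.31, adjusted p = 0.178). Its control values were 12.31, 12.03 and 10.96 and its GDF11 values 11.10, 11.35 and 10.96, so the third control was as low as the lowest GDF11 library. TIMM10 was arranged in a similar way, with controls at 11.98, 11.79 and 10.91 against 10.89, 11.08 and 10.78 (-0.64 ± 0.26, adjusted p = 0.111). Both were called without control replicate 3, TIMM8B at -1.03 and TIMM10 at -0.97. With the covariate both turned, TIMM8B to 0.18 and TIMM10 to 0.015, and neither was called. TIMM9 was not called (-0.41 ± 0.14, adjusted p = 0.0712), though its groups did not overlap, and neither was TIMM10B (-0.23 ± 0.16, adjusted p = 0.329).

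In the TIM22 complex, which inserts carrier proteins into the inner membrane, 1 of 2 genes fell. TIMM22, its channel, had control values of 10.94, 11.11 and 10.70 and GDF11 values of 10.43, 10.53 and 10.23, and fell by 0.52 ± 0.16 (limma adjusted p = 0.0499). The call lay at the threshold and ended in every fit that left out 1 library except control replicate 3 (-0.59 to -0.42), with the RNA integrity covariate (-0.19), without a filter (adjusted p = 0.0797), with a robust prior (adjusted p = 0.0543) and on log2 reads plus 1 (adjusted p = 0.0517). TIMM29, a structural subunit, was not called (-0.06 ± 0.14, adjusted p = 0.805), and its GDF11 values of 9.74 to 10.01 spanned the controls.

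The TIM23 complex moves presequence proteins through the inner membrane, and 1 of its 5 genes fell. TIMM21, which links it to the TOM complex, stood at 10.52, 10.37 and 10.41 in control and at 9.91, 9.73 and 9.93 with GDF11, and fell by 0.58 ± 0.14 (limma adjusted p = 0.0194). This call ended without control replicate 1 or any 1 GDF11 replicate (-0.61 to -0.51) and with the RNA integrity covariate (-0.59, adjusted p = 0.101). TIMM50, the presequence receptor, had the largest decrease that missed the threshold (-0.93 ± 0.30, adjusted p = 0.0553). Its controls were 13.08, 12.92 and 12.05 and its GDF11 values 11.92, 12.07 and 11.28, so control replicate 3 and GDF11 replicate 2 were nearly level. Without control replicate 3 TIMM50 was called (-1.25, adjusted p = 0.00251). The channel gene TIMM23 was not called (-0.55 ± 0.20, adjusted p = 0.0780). TIMM23B is a near copy that can share its reads. TIMM23B stood at a mean of 8.56 in control and 8.87 with GDF11 and was not called (0.31 ± 0.20, adjusted p = 0.301). Whether reads moved between them was not tested. TIMM17A and TIMM17B encode alternative subunits of the complex. TIMM17B was not called (-0.64 ± 0.28, adjusted p = 0.136), nor was TIMM17A, at a mean of 11.37 ± 0.133 in control and 11.36 ± 0.177 with GDF11 (SD, n = 3 each, limma adjusted p = 0.954). Without control replicate 3, TIMM23 (-0.75, adjusted p = 0.00209) and TIMM17B (adjusted p = 0.000572) were called lower. With the covariate TIMM50 stood at -0.069, TIMM23 at -0.098 and TIMM17B, its direction turned, at 0.16, and none was called.

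Of the 7 genes of the presequence motor, which pulls proteins into the matrix, 3 fell and 0 rose. GRPEL1, the nucleotide exchange factor of mitochondrial Hsp70, had control values of 12.20, 12.22 and 11.87 and GDF11 values of 11.40, 11.41 and 11.32. It fell by 0.72 ± 0.15 (limma adjusted p = 0.0104), and the call ended without GDF11 replicate 3 (-0.69) and with the covariate for RNA integrity (-0.46). PAM16, a J-like regulator of the motor, stood at 11.43, 11.32 and 10.47 in control and at 10.14, 10.44 and 10.04 with GDF11. It fell by 0.86 ± 0.26 (adjusted p = 0.0404), a call lost in every fit that left out 1 library except control replicate 3 (-0.98 to -0.68) and with the covariate (-0.24). A read-through gene, CORO7-PAM16, can share its reads, and its own reads came to 0.775% of those of PAM16 in control and 4.49% with GDF11.

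DNAJC19, a J protein of the inner membrane, stood at 9.93, 9.85 and 9.88 in control and at 9.16, 9.26 and 9.57 with GDF11, and fell by 0.55 ± 0.16 (limma adjusted p = 0.0352). Its call ended without control replicate 1 or 2 or GDF11 replicate 1 or 2 (-0.57 to -0.47) and with the RNA integrity covariate (-0.73). Its relative DNAJC15 was not called (0.15 ± 0.17, adjusted p = 0.555). HSPA9, the mitochondrial Hsp70 at the heart of the motor, was not called (-0.29 ± 0.19, adjusted p = 0.287). Its controls were 14.60, 14.52 and 15.07 and its GDF11 values 14.49, 14.33 and 14.51, so the groups were separate by a narrow margin. TIMM44, which anchors Hsp70 to the channel, was not called (-0.40 ± 0.13, adjusted p = 0.0618) and was called without control replicate 3 (-0.42, adjusted p = 0.0184) but not with the covariate (-0.32, adjusted p = 0.292). GRPEL2, the paralogue of GRPEL1, stood at 9.87 ± 0.161 in control and 9.85 ± 0.166 with GDF11 (SD, n = 3 each, limma adjusted p = 0.927).

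Among the processing peptidases 1 of 3 fell. PMPCA, the alpha subunit of the peptidase that removes presequences, had control values of 13.07, 13.27 and 12.57 and GDF11 values of 12.13, 12.31 and 12.06. It fell by 0.80 ± 0.20 (limma adjusted p = 0.0201), and its call ended without control replicate 1 or 2 or GDF11 replicate 1 or 3 (-0.79 to -0.65) and with the RNA integrity covariate (-0.33). The catalytic beta subunit, PMPCB, was not called (-0.28 ± 0.14, adjusted p = 0.170). Its controls were 12.05, 12.08 and 12.06 and its GDF11 values 11.73, 11.89 and 11.73, without overlap. MIPEP, which trims further residues from some precursors, was at 10.61 ± 0.0388 in control and 10.60 ± 0.0912 with GDF11 (SD, n = 3 each, limma adjusted p = 0.974).

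All 3 matrix chaperone genes fell. TRAP1, a mitochondrial Hsp90 (ENSG00000126602.11, chromosome 16, 3658037 to 3717524), had the largest decrease of the members. Its control values were 14.64, 14.72 and 13.98 and its GDF11 values 13.33, 13.50 and 12.93. The groups did not overlap, although control replicate 3 lay midway between them. The difference was -1.20 ± 0.24 (limma adjusted p = 0.00778), or 57.1% fewer normalised reads. Its call held in each fit that left out 1 library (-1.43 to -1.03) and ended, among the 19 alternatives, with the RNA integrity covariate alone (-0.55, adjusted p = 0.174).

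HSPD1 and HSPE1 encode Hsp60 and its lid Hsp10, which fold matrix proteins together. HSPD1 (ENSG00000144381.17, chromosome 2, 197486584 to 197500274) stood at 16.57, 16.38 and 16.76 in control and at 15.84, 15.88 and 16.04 with GDF11. HSPE1 (ENSG00000115541.11, chromosome 2, 197500379 to 197503449) stood at 14.21, 14.10 and 13.93 in control and at 13.25, 13.41 and 13.63 with GDF11. In both the groups were apart, and control replicate 3 was the highest control for HSPD1 and the lowest for HSPE1. HSPD1 fell by 0.65 ± 0.18 (limma adjusted p = 0.0284) and HSPE1 fell by 0.65 ± 0.16 (adjusted p = 0.0227), or 36.8% and 36.2% fewer normalised reads. The call of HSPD1 ended with quantile normalization (-0.20, adjusted p = 0.619) and without control replicate 1 or any 1 GDF11 replicate (-0.71 to -0.62), but it was called with the RNA integrity covariate (-0.96, adjusted p = 0.0124). The call of HSPE1 ended with that covariate (-0.67, adjusted p = 0.107) and without control replicate 1 or 2 or GDF11 replicate 1 or 2 (-0.64 to -0.56). Pseudogenes named for these genes, 18 for HSPD1 and 26 for HSPE1, held at most 0.296% of their parent's reads. The read-through gene HSPE1-MOB4 held 2.20% of the reads of HSPE1 in control and 4.12% with GDF11.

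The HSPD1 and HSPE1 genes lie head to head with 105 bases between their starts, so their promoter windows share 204 bases, and the shared window is shown because both genes fell by nearly the same amount. The first line is the HSPE1 window, chr2:197500129-197500428 on the plus strand, with an NRF1 match 47 bases and an E-box CACGTG 22 bases before the HSPE1 start. The second is the window of another HSPD1 start, chr2:197499791-197500090 on the minus strand, in which a pair of overlapping heat shock element matches (GAA, TTC and GAA with 2 bases between each, capitals) begins 245 and 240 bases before that start. The third is TRAP1, chr16:3717475-3717774 on the minus strand, the gene of the largest decrease, which holds no match to any motif searched.
HSPE1: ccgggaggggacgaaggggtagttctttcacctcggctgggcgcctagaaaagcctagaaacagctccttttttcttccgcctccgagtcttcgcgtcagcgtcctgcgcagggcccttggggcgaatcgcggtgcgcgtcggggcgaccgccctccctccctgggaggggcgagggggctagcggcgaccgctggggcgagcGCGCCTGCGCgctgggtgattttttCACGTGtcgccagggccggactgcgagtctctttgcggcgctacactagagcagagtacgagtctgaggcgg
HSPD1: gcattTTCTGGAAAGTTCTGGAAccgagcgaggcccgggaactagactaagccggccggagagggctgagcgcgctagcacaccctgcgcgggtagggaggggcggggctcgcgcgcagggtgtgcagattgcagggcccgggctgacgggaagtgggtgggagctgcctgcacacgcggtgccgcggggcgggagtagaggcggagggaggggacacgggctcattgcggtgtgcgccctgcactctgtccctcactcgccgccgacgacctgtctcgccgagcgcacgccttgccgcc
TRAP1: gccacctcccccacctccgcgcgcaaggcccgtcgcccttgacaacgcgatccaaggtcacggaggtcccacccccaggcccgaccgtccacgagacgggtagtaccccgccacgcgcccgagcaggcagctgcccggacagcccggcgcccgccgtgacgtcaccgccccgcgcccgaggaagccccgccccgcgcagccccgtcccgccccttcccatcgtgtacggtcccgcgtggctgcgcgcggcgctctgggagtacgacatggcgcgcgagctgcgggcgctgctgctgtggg

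Of the matrix protease genes 1 of 3 fell. LONP1, the LON protease, stood at 13.44, 13.57 and 13.19 in control and at 12.75, 12.89 and 12.67 with GDF11, and fell by 0.63 ± 0.16 (limma adjusted p = 0.0228). Its call ended in every fit that left out 1 library except control replicate 3 (-0.68 to -0.54) and with the RNA integrity covariate (-0.35). CLPP, the proteolytic chamber of the CLP protease, was not called (-0.55 ± 0.23, adjusted p = 0.114) and was called without control replicate 3 (-0.81, adjusted p = 0.00242), but it turned with the covariate (0.086, adjusted p = 0.860). CLPX, the unfoldase that feeds CLPP, went the other way. Its control values were 10.94, 10.53 and 11.23 and its GDF11 values 11.28, 11.31 and 11.38, all above the controls. CLPX was not called (0.43 ± 0.19, adjusted p = 0.138), was called higher without control replicate 3 (0.59, adjusted p = 0.0122), and stood at -0.03 with the RNA integrity covariate (adjusted p = 0.952).

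Per kilobase of transcript, the members spanned a wide range of levels. HSPD1 was highest, at 43583 normalised reads per kb (mean of 3 controls), followed by HSPE1 at 31003 and TOMM6 at 17786. TRAP1 (10259), TOMM5 (8952), TOMM7 (7150) and HSPA9 (6258) came next. GRPEL2 (211), DNAJC15 (252) and CLPX (395) were lowest. With GDF11 the highest were again HSPD1 (27563), HSPE1 (19768) and TOMM6 (10992), while TRAP1 stood at 4405, below TOMM7 at 6073, HSPA9 at 5040 and TOMM5 at 4896. Library by library, TRAP1 lay above HSPA9 in control replicates 1 and 2 and GDF11 replicate 2 and below it in the other libraries, so their order varied within both groups. The ratio of HSPD1 to HSPE1 per kb was 1.28, 1.21 and 1.78 in the controls and 1.51, 1.37 and 1.33 with GDF11, so the groups overlapped. Lengths are those of one canonical transcript per gene, which these cells need not use.

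**Figure D2:**
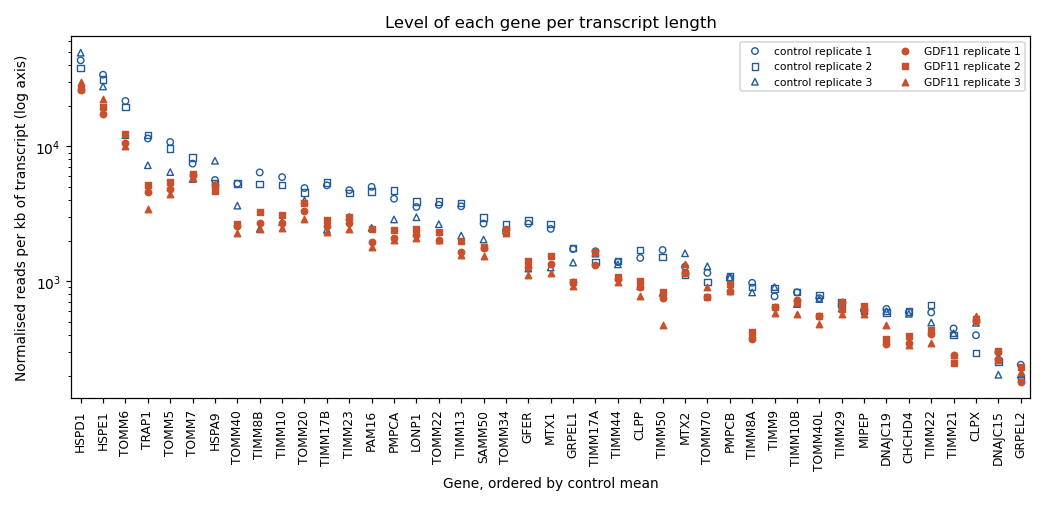
Normalised reads per kb of transcript (log axis) of each gene in each library, with genes ordered by their control mean. HSPD1 and HSPE1 lead in both groups, and all filled GDF11 symbols lie below the open control symbols for 24 genes.

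Paralogues and partners were compared within libraries, as the difference of the log2 values of a pair, with an exact two-sided permutation test over the 6 libraries and adjustment over 8 pairs. The smallest p the 10 splits allow is 0.1, so none could pass 0.05. In 4 pairs the groups did not overlap. GRPEL1 minus GRPEL2 was 2.15, 2.48 and 2.04 in control and 1.74, 1.42 and 1.44 with GDF11, a change of -0.69 (exact p = 0.1, adjusted p = 0.2). DNAJC15 minus DNAJC19 changed by 0.71, PMPCA minus PMPCB by -0.53 and TOMM40 minus TOMM40L by -0.38, each at the same exact p. For TOMM40 and PMPCA control replicate 3 was much nearer to the GDF11 libraries than the other controls were. In the other pairs the groups overlapped. CLPP minus CLPX changed by -0.98 (exact p = 0.2), TIMM17A minus TIMM17B by 0.62 (exact p = 0.3) and TIMM8A minus TIMM8B by -0.42 (exact p = 0.4). With that library left out these stood at -1.40 (CLPP minus CLPX), 1.01 (TIMM17A minus TIMM17B) and -0.07 (TIMM8A minus TIMM8B). For HSPD1 minus HSPE1 the change was -0.0060 (exact p = 1), with GDF11 values of 2.41 to 2.59 inside the control range of 2.28 to 2.84.

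**Figure D3:**
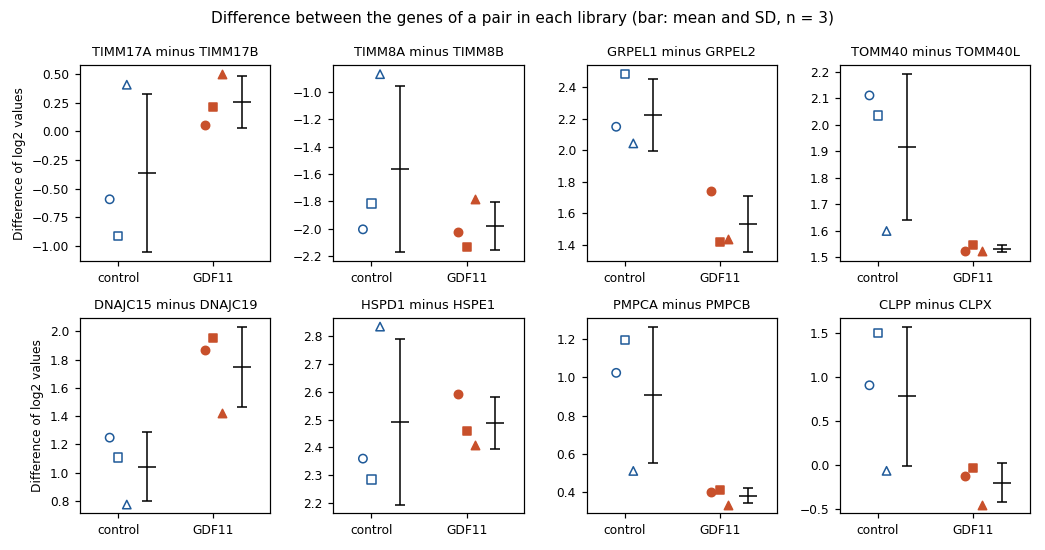
Difference of the variance-stabilised log2 values of the genes of 8 pairs (y axis, its range set per panel and not starting at 0) in the 3 control (open blue) and 3 GDF11 (filled red) libraries, with circles, squares and triangles for replicates 1, 2 and 3 and bars for mean and SD. The groups are apart in 4 panels, and control replicate 3 lies away from the other controls in most.

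The position of control replicate 3 followed base composition. Across the 43 members, its value minus the mean of the other controls had a Spearman rho of -0.60 with transcript GC content and 0.35 with transcript length, against -0.44 and 0.38 over 18451 tested genes. The GDF11 difference had a rho of -0.43 with GC content and 0.30 with length over the members, against -0.16 and 0.21 over the tested genes. These are descriptions across genes measured in the same 6 libraries. Once each library's trend on these properties was removed, a step chosen after the data were seen, 21 members were called lower (15.5% of tested genes), among them all 18, with HSPA9, TIMM50 and TOMM70 added. Their median difference was -0.50.

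**Figure D4:**
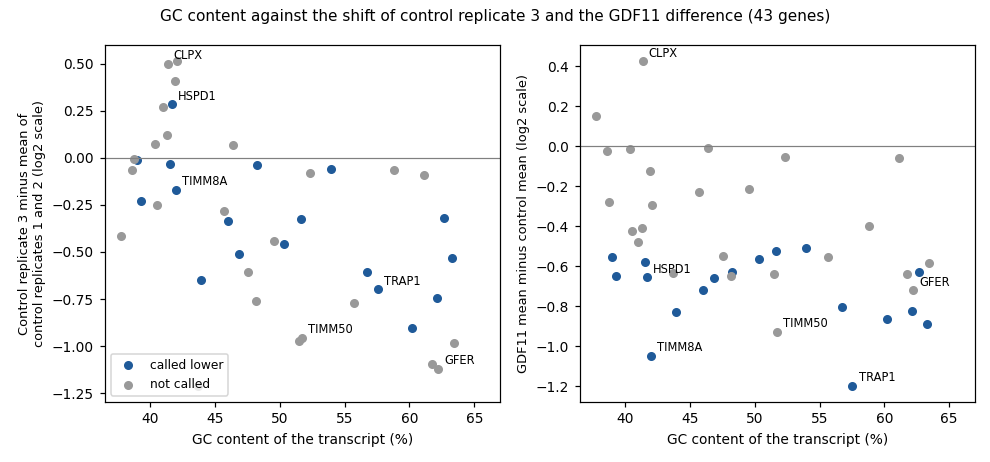
GC content of each gene's transcript (x axis, percent) against the shift of control replicate 3 from the mean of control replicates 1 and 2 (left) and against the GDF11 difference (right), both on the variance-stabilised log2 scale; blue points are the 18 genes called lower. GFER, of high GC content, lies low on the left (-1.12), but TIMM29 and TIMM44, also of high GC content, lie at -0.09 and -0.07 there. TIMM8A lies at -0.17 on the left and at -1.05 on the right.

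Among promoters of the members, 44 RefSeq windows covered 39 of the 43 genes. An NRF1 match was in 12 windows, or 27.3%, against 5.78% of all 35116 promoter windows of that length. It was in 6 of 16 genes that fell and 6 of 23 that were not called. The NRF1 matches of HSPD1 and HSPE1 are the same bases of their shared promoter, so that site is counted for both windows and both genes. Their E-box is shared and counted in the same way. An ETS match (CCGGAAGT), the core bound by the GABP factors, was in 8 windows, or 18.2% against 4.14%, in 0 of the genes that fell and 8 of those not called. YY1 matches (ATGGCGGC) were in 15.9% against 3.00%, in 3 of the 16 genes that fell and 4 of the 23 not called. E-boxes (CACGTG) were in 18.2% against 7.26%, in 4 of the 16 and 4 of the 23. Whether any motif differs between these genes was not tested. The heat shock element was in 1 window, that of HSPD1, or 2.27% against 0.49%, and a palindromic SMAD motif (GTCTAGAC) in 0 against 0.202%. Both strands were searched, and a match only says that these letters are in the window.

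Counts for other genes of import and mitochondrial quality control stand against 10.8% of all tested genes called lower and 11.7% higher. Among 16 tested of 17 further import and assembly factors, 2 fell and 0 rose, and the 12.5% lower is near the share over all genes. The 2 were OXA1L, the inner membrane insertase (-0.62 ± 0.18, limma adjusted p = 0.0420), and MTCH2, an outer membrane insertase (-0.68 ± 0.19, adjusted p = 0.0298). DNAJA3 and GHITM were not called (-0.37 and -0.27). Of 16 genes of inner membrane quality control and presequence turnover, 3 fell (18.8%) and 0 rose. They were the prohibitin genes PHB1 (-0.73 ± 0.20) and PHB2 (-1.02 ± 0.25) and STOML2, which encodes a related scaffold (-0.81 ± 0.22), at adjusted p of 0.0204 to 0.0294. PITRM1, the protease that degrades cleaved presequences, had controls at 11.56, 11.57 and 11.61 and GDF11 values at 12.12, 11.96 and 11.85. The groups were apart, but it was not called (0.39 ± 0.14, adjusted p = 0.0746), and it was called higher without control replicate 3 (0.41, adjusted p = 0.0276) and with quantile normalization (0.50, adjusted p = 0.0287), but not with the RNA integrity covariate (0.47, adjusted p = 0.149).

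Of 18 genes for cytosolic chaperones, outer membrane channels and import-linked quality control, 3 fell (16.7%) and 1 rose, against 10.8% and 11.7% of all tested genes. VDAC3, a metabolite channel imported through TOM and SAM, fell by 1.22 ± 0.23 (limma adjusted p = 0.00661), with controls at 13.53, 13.28 and 12.61 and GDF11 values at 11.94, 12.06 and 11.76. VDAC1 fell by 0.48 ± 0.15 (adjusted p = 0.0449) and USP30, an outer membrane deubiquitinase, fell by 0.83 ± 0.24 (adjusted p = 0.0358). PINK1 encodes a kinase whose protein accumulates when import fails, and protein was not measured here. Its RNA rose from 11.28, 11.45 and 10.97 to 12.04, 12.22 and 11.94. This was 0.83 ± 0.17 (adjusted p = 0.00899), and PINK1 was called higher with the RNA integrity covariate too (1.17, adjusted p = 0.00819). Of 16 stress response and biogenesis factors, 5 fell (31.2%) and 0 rose. CEBPB (-0.76 ± 0.18), MYC (-0.81 ± 0.20), ATF5, a factor of the mitochondrial unfolded protein response (-0.77 ± 0.20), and ESRRA, an activator of mitochondrial genes (-0.60 ± 0.16), had adjusted p of 0.0161 to 0.0267. PPARGC1A, a coactivator of mitochondrial biogenesis, was the fifth (-0.99 ± 0.29, adjusted p = 0.0408) and was named after its value was seen. The genes of factors whose motifs are counted above were not called. They were NRF1 (-0.24 ± 0.15), GABPA (0.16 ± 0.17), GABPB1 (0.019 ± 0.16) and YY1 (0.41 ± 0.27), at limma adjusted p of 0.292 to 0.946. These too were named after their values were seen.

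Most of these calls were lost when single libraries were left out. OXA1L, MTCH2, PHB1, STOML2, VDAC1, ATF5 and ESRRA lost theirs in every fit but that without control replicate 3, at differences between -0.89 (STOML2) and -0.42 (VDAC1). PHB2 lost it without control replicate 1 or 2 or GDF11 replicate 1 or 3 (-1.09 to -0.85), USP30 without control replicate 1 or 2 or GDF11 replicate 2 or 3 (-0.79 to -0.65) and MYC without control replicate 2 or any 1 GDF11 replicate (-0.85 to -0.76). CEBPB lost it without GDF11 replicate 1 (-0.76) or 3 (-0.72), and PPARGC1A in every fit but that without GDF11 replicate 3 (-1.13 to -0.73). VDAC3 and PINK1 kept theirs in all 6. Quantile normalization also ended the calls of MYC (-0.70, adjusted p = 0.0622) and VDAC1 (-0.32, adjusted p = 0.0822), and the lack of a filter on low values those of OXA1L (adjusted p = 0.0633) and VDAC1 (adjusted p = 0.0788). With the RNA integrity covariate MYC (-1.22), PPARGC1A (-1.85) and PINK1 were called, and the other called genes of these lists were not, at differences from -0.67 for VDAC3 to -0.18 for OXA1L.

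Other gene sets of the mitochondrion were counted beside the import genes. Among 77 genes for mitochondrial ribosomal proteins 28 fell and 0 rose, with a median difference of -0.53. Among 78 tested nuclear-encoded respiratory chain genes 14 fell and 0 rose, with a median difference of -0.50. The import genes had 41.9% called lower, the ribosomal proteins 36.4% and the respiratory chain genes 17.9%, against 10.8% of all tested genes. The share of the respiratory chain genes was nearer to that of all genes than to that of the import genes. Their direction was not. The difference was below 0 for 41 of 43 import, 75 of 77 ribosomal protein and 72 of 78 respiratory chain genes, against 49.4% of all tested genes. The unadjusted limma p was under 0.05 for 28, 50 and 43 genes of these sets, and for 6957 of all 18723. The median shift of control replicate 3 from the mean of the other controls was -0.32, -0.60 and -0.70 in the 3 sets in that order. Whether the sets differ was not tested.

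**Figure D5:**
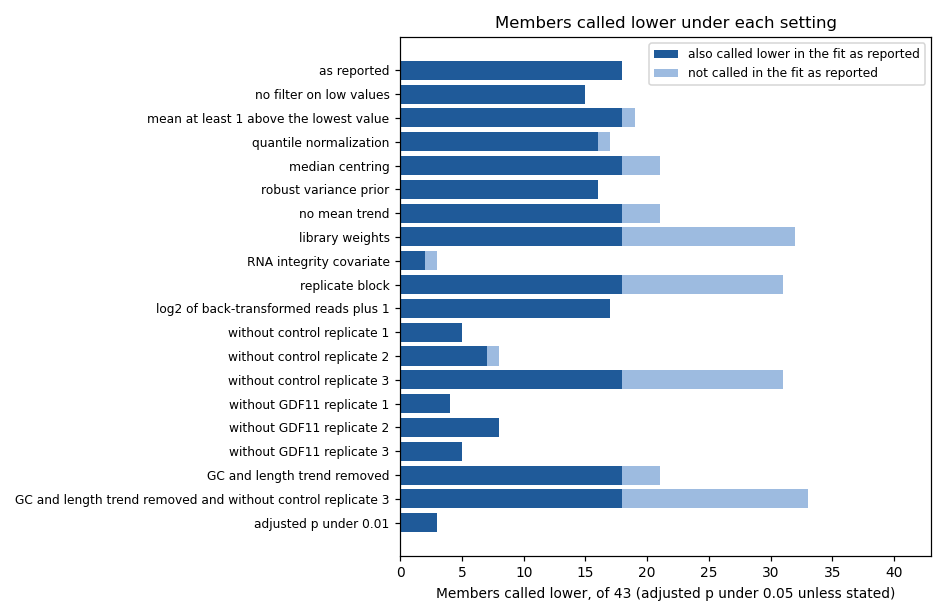
Number of the 43 genes called lower with GDF11 (x axis, from 0) under the fit as reported and each alternative (rows). Dark bars count genes among the 18 of the fit as reported and light bars further genes; the count runs from 3 with the RNA integrity covariate to 33 with the trend on GC content and length removed and control replicate 3 left out.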

How the data were processed

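Total RNA of 6 HepG2 libraries was sequenced as single reads of 75 bases from directional libraries, per the labels' protocols. The authors deposited 1 table of variance-stabilised log2 values. The tools listed, per the submitters' processing notes, are Trimmomatic, Salmon 1.2.1 and DESeq2, with GRCh38. The labels' protocols name STAR 2.6, hg19 and a MiSeq instead. Which route led to these values was not given in the sources used here. Symbols matched 96.9% of the 60240 IDs. The curve was inverted to normalised reads; of low values (up to 20 reads) 71.2% to 74.4% fell within 0.01 of whole reads, so a count test was left out; depth was estimated from the size of 1 read. Genes whose mean exceeded the floor of 5.521 by 0.5 or more entered limma 3.58.1, run in R 4.3.3 (mean trend, two-sided, no covariate). Adjustment was over all tested genes, and SE are moderated. The fit was run on simulated data with independent noise for each gene. That simulation held no shift shared across genes, as in control replicate 3, and no RNA integrity difference, so it cannot check for these. Replicates differed beyond sampling noise (chi-square per gene 27.8 to 298.3). Transcript GC content and length came from GENCODE canonical transcripts, positions and promoters from RefSeq GRCh38.p14 by symbol. Mitochondrial ribosomal and respiratory chain genes were taken by symbol pattern. Members, lists and tests were chosen with earlier results of these data known. Genes described are all called members, up to 4 per role or list with the lowest p, and both genes of 8 pairs. The remaining members are given too, and PPARGC1A, NRF1, GABPA, GABPB1 and YY1 were added after their values were seen. Protein sequences, also planned, were not used here. Alternatives covered filters, normalization, variance prior, library weights, RNA integrity, a replicate block, scale, threshold and each library left out.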

Additional observations from a re-analysis of the deposited data

How the results depend on the processing

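With library weights, 4473 genes were called higher and 4554 lower over all tested genes, and 32 import genes lower and 1, CLPX, higher. The RNA integrity covariate left 1149 higher and 721 lower, with 3 import genes lower and a median import difference of -0.24. Replicate numbers are shared by the groups, and same-numbered libraries deviated together with r of -0.0883, 0.375 and 0.478. For GDF11 replicates 2 and 3 the control of the same number correlated best. GDF11 replicate 1 correlated best with control replicate 2 (0.147). Whether libraries of the same number belong together was not tested. With a replicate block, 3306 genes and 31 import genes were called lower. At an adjusted p under 0.01, 1170 genes were higher and 791 lower, with 3 import genes lower. With the trend on GC content and length removed and control replicate 3 left out, both chosen after the data were seen, 3821 were higher and 4332 lower, with 33 import genes lower and 1 higher. Leaving out 1 library gave 1397 to 3647 genes higher and 955 to 3993 lower, with 4 to 31 import genes lower and 0 to 1 higher and a median import difference of -0.64 to -0.47. The most calls came without control replicate 3. Without control replicate 1 or 2, 5 and 8 import genes were called lower, and without GDF11 replicate 1, 2 or 3, 4, 8 and 5.

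Signs turned, among the results on members and pairs, for import genes that were not called and for HSPD1 minus HSPE1. Quantile normalization gave TOMM34 0.087 and TIMM17A 0.045, and a change of HSPD1 minus HSPE1 of 0.29. Library weights gave TIMM29 0.0017, DNAJC15 -0.029 and MIPEP 0.018. The RNA integrity covariate gave TOMM7 0.15, TOMM34 0.064, MTX1 0.18, TIMM8B 0.18, TIMM10 0.015, TIMM10B 0.095, GFER 0.12, TIMM29 0.13, TIMM17B 0.16, CLPP 0.086 and CLPX -0.031. Removing the GC and length trend gave TOMM34 0.0028, TIMM29 0.12, TIMM17A 0.058, DNAJC15 -0.046 and MIPEP 0.0053, and without control replicate 3 as well TOMM34 0.0068, MTX2 0.11, TIMM29 0.22, TIMM17A 0.076 and DNAJC15 -0.30. With 1 library left out, TIMM17A ran from -0.091 to 0.087, GRPEL2 from -0.10 to 0.066, MTX2 from -0.23 to 0.015, MIPEP from -0.053 to 0.038, TIMM29 from -0.13 to 0.0088 and HSPD1 minus HSPE1 from -0.11 to 0.17. The cause of these shifts was not tested. On the variance-stabilised scale a true log2 change appears as 0.835 of its size at a value of 9, near the GDF11 values of TIMM8A, CHCHD4 and DNAJC19.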
